A study of Urocitellus parryii with 44 samples.

Results

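Cell division genes were followed in brown adipose tissue, the heat-producing fat of mammals, of arctic ground squirrels (Urocitellus parryii) in winter torpor and of summer active squirrels sampled in August. The members were chosen by symbol and not by function: the probes whose single gene symbol begins with Mcm2 to Mcm7, Ccna, Ccnb, Ccnd, Ccne, Bub, Mad2l, Cenp, Aurk, Plk, Anapc or Rrm, or is Cdk1, Cdk2, Cdk4, Cdk6, Cdc6, Cdc7, Cdc20, Cdc25a, Cdc25b, Cdc25c, Cdc45, Mki67, Top2a or Pcna. They were 75 of 11786 genes named by a single-symbol probe, measured with 165 of the 25070 such probes (38400 probes in all). Total RNA of 5 torpid and 3 summer animals was labelled with 33P and hybridised to 4 membranes of mouse cDNA probes (MA07, MA08, MA10 and MA11), which carried 60, 28, 47 and 30 member probes. The RNA of torpid animal 5 and of summer animals 1 and 2 was split in 2 portions that were measured separately, and their log2 values were averaged. No treatment, genotype, age or sex is given in the labels used here, and season and torpor changed together, so that their contributions cannot be told apart. The probes are mouse sequences, and 72 of the 75 symbols match a symbol or synonym in the squirrel's RefSeq annotation.

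A dividing cell loads the MCM helicase onto its DNA in G1, when cyclin D with Cdk4 or Cdk6 and then cyclin E with Cdk2 drive it towards replication. Cyclin A and cyclin B with Cdk1 carry it into mitosis after Cdc25 phosphatases remove inhibitory phosphates. Aurora and Polo-like kinases build the spindle, the Bub and Mad2 proteins delay anaphase until chromosomes are attached at their centromeres, and the anaphase-promoting complex then marks cyclin B and securin for destruction. Mature brown adipocytes have left the cycle, while precursors, endothelial cells and leukocytes of the tissue can divide. In these bulk samples, fewer cells of a dividing type and less RNA per cell cannot be told apart.

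Few member probes were called different between torpid and summer animals, as was true of all tested probes. Of the 163 member probes that could be tested, 1 passed an adjusted p of 0.05 by limma, a linear model with moderated variance. That probe was higher in torpor. Of all tested probes 0.309% were called, 0.259% higher and 0.0502% lower. A count of 1 cannot show whether the members differ from that share. No member was called lower. An unadjusted p under 0.05 was reached by 2 member probes that were higher and 9 that were lower in torpor, together 6.75% of the members, where 11.6% of all tested probes lay under that value (6.39% higher and 5.18% lower). The torpid and summer animals did not overlap in 11 member probes, 4 higher and 7 lower, or 6.75% of the members against 8.5% of all tested probes (4.37% higher and 4.13% lower). Taken over both directions, both shares were thus below those of all tested probes. The shortfall lay in the probes higher in torpor, 2 and 4 of the 163. The probes lower in torpor, 9 and 7 of the 163, were near the shares of all tested probes. By role, the unadjusted p was under 0.05 for 1 G1 probe (higher), 1 probe of nucleotide supply, 3 of the S phase and mitosis group, 1 checkpoint, 2 centromere and 1 proliferation probe (all lower), 2 of the anaphase-promoting complex (1 higher, 1 lower), and 0 licensing, mitotic kinase and partner-named probes.

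More member probes had a negative than a positive difference, but the medians of single animals overlapped. In log2 units (torpor minus summer), the median of the members was -0.06, where all 37848 tested probes had a median of 0, and 97 members were negative and 66 positive. Each animal was also set against the midpoint of the 2 group means of each probe. The median of these deviations over the member probes was -0.02, 0.01, -0.09, 0.0087 and -0.03 in torpid animals 1 to 5, against 0.06, 0.10 and -0.01 in summer animals 1 to 3. Over all tested probes it was 0.06, 0.04, 0.01, 0.01 and -0.0005 in torpid animals, against -0.01, 0.04 and 0.002 in summer animals. In the members, summer animals 1 and 2 were above all torpid animals, and summer animal 3 was below torpid animals 2 and 4. The difference was smaller than 0.5 in size for 135 of the 163 probes and larger than 1 for 7. The median was negative for the probes of MA07, MA10 and MA11 (-0.07, -0.04 and -0.19) and 0.0015 for those of MA08. The median standard error of a member probe was 0.27, and it was largest on MA10, at 0.44. Duplicate measurements of the split RNAs set the scale of the measurement error: the median member probe had an SD of 0.35 between duplicates, beside an SD of 0.32 between torpid animals and 0.35 between summer animals. The spread between animals was thus about as large as that between repeated measurements of the same RNA. The 2 scales are not quite alike, because the duplicate SD is of single portions and the split animals enter as averages.

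**Figure D1:**
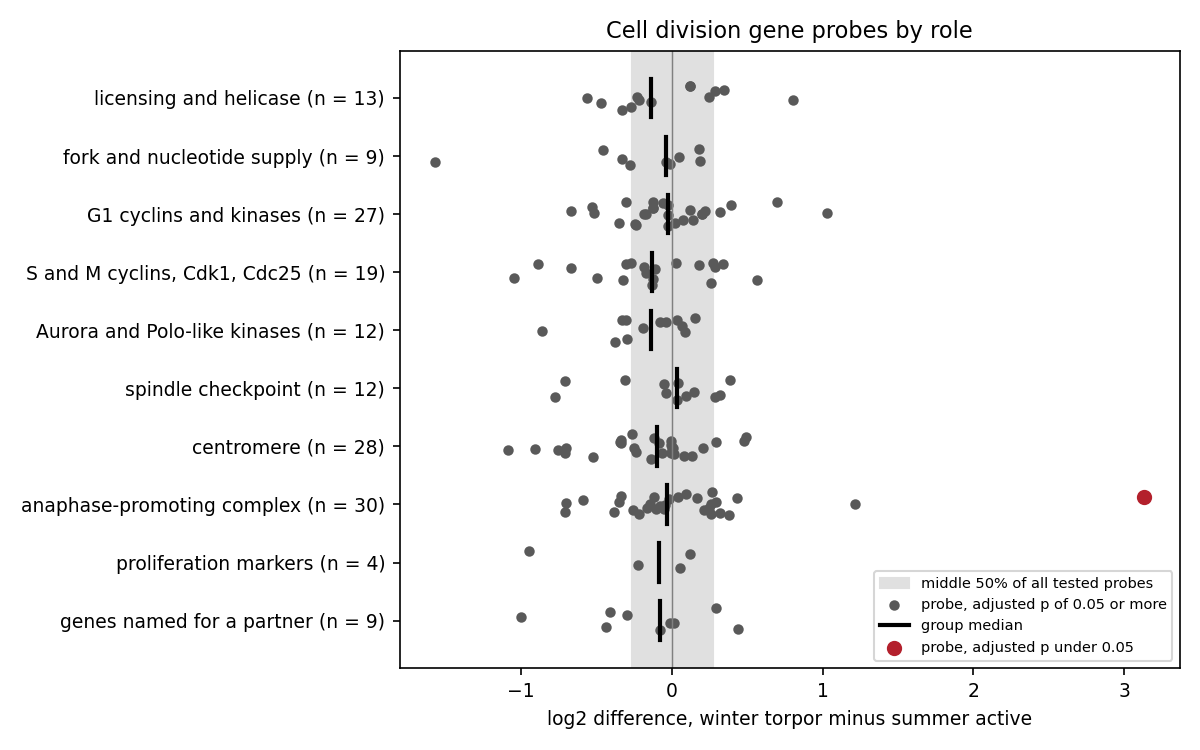
Each point is 1 member probe, placed by its log2 difference (winter torpor minus summer active, horizontal axis) in its role group (vertical axis), with the group median as a black line and the middle 50% of all tested probes in grey. Group medians lie between -0.14 and 0.04, and the only probe past the threshold is the Anapc7 probe at 3.13.

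Anapc7, whose tetratricopeptide repeats help the anaphase-promoting complex to bind its activators, rose with 1 of its 3 probes. On MA07 (probe 4315) the torpid animals 1 to 5 had log2 levels of 2.52, 2.21, 2.42, 1.39 and 2.29 relative to the column median, against -1.001, -1.87 and -0.02 in summer animals 1 to 3. All torpid animals lay above all summer animals, and the lowest torpid animal stood 1.42 above the highest summer animal. The difference was 3.13 ± 0.39 (SE), or 8.77-fold (95% confidence interval 4.80 to 16.02), with a limma adjusted p of 0.0154. The split RNAs gave 2.45 and 2.14 in torpid animal 5, against -1.81 and -0.20 in summer animal 1 and -1.30 and -2.45 in summer animal 2, so that the duplicates of either summer animal were more than 1 apart and still below every torpid value. The call was lost without torpid animal 2 (difference 3.12, adjusted p = 0.0629) and with the second duplicates alone (3.03, adjusted p = 0.0652).

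The other Anapc7 probes hold a different clone, spotted on 2 membranes. On MA08 (probe 307) the torpid animals had 1.29, 1.38, 1.37, 1.01 and 1.45, against 1.05, 1.48 and 0.72 in summer animals. On MA11 (probe 7426) the values were 1.95, 1.47, 1.15, 0.58 and 1.74 in torpid animals, against 1.06, 1.39 and 0.38 in summer animals. The groups overlapped in both probes, and their differences, 0.22 ± 0.22 and 0.43 ± 0.34, had 95% intervals of -0.27 to 0.70 and -0.30 to 1.17. Neither interval reaches the lower bound of the MA07 probe, 2.26. Torpid animal 4 was the lowest torpid animal in all 3 probes, whereas summer animal 3 was the highest summer animal on MA07 and the lowest on MA08 and MA11. The 20 probes within 10 index positions of the MA07 probe had a median difference of 0.03 and none was called. Over the whole membrane 20 of 9546 tested probes were called, so that few calls would be found in any such set.

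**Figure D2:**
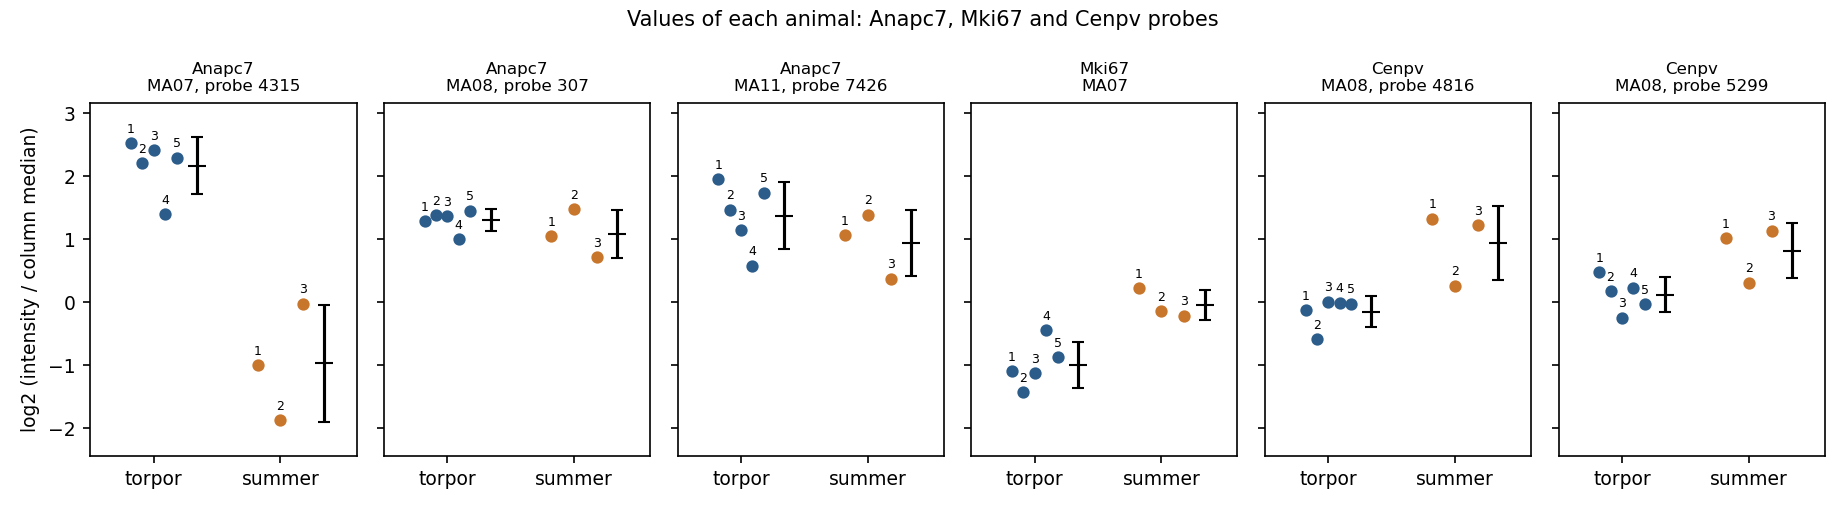
Each panel plots 1 probe, with each animal's log2 intensity over the column median (vertical axis, numbers are animal numbers), torpid animals left and summer animals right, and the mean with SD as a bar. The MA07 probe of Anapc7 separates the groups by 3.13, the other Anapc7 probes overlap, and Mki67 and the Cenpv probe 4816 are lower in torpor without passing the threshold.

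The remaining 29 probes of the anaphase-promoting complex and its activator Cdc20 had differences from -0.71 to 1.22, with a median of -0.04, and 0 were called. Anapc1, a large scaffold subunit, had 5 probes of 5 clones between -0.34 and 0.30, and Anapc11, the RING subunit that recruits the ubiquitin-conjugating enzyme, had -0.38 and -0.26. Anapc5, another scaffold subunit, had 1.14, 0.14, 0.64, 1.04 and 0.89 in torpid animals on MA07, against 0.86, 1.499 and 2.08 in summer animals. The groups overlapped, the difference was -0.71 ± 0.31 (adjusted p = 0.416 by limma), and its other clone gave -0.22 on MA08 and 0.26 on MA11. The largest positive value after Anapc7 was an Anapc4 probe of MA10 at 1.22, which lay at signal percentile 2.01 and was empty in torpid animal 2 and summer animal 2. The other 4 clones of Anapc4 ran from -0.59 to 0.38. Cdc20 had -1.26, -0.47, -0.65, -0.76 and -0.51 in torpid animals on MA07, against -0.62, -0.89 and -0.25 in summer animals, a difference of -0.15 with an interval of -0.66 to 0.37.

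Mki67, which encodes the Ki-67 antigen carried by cycling cells, had the lowest p among the members with 1 probe. Its log2 levels were -1.09, -1.43, -1.13, -0.44 and -0.87 in torpid animals, against 0.23, -0.14 and -0.22 in summer animals. Every torpid animal lay below every summer animal. The difference of -0.95 ± 0.24 corresponds to a level 1.93-fold lower in torpor (95% interval of the log2 difference -1.47 to -0.42), but it missed the threshold over all probes (limma adjusted p = 0.161, and 0.099 to 0.345 over the alternatives). The duplicates of summer animal 2 were 0.37 and -0.66, so that the second of them lay within the torpid range.

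Top2a, the topoisomerase that untangles replicated chromosomes, is the other classical marker of cycling cells. On MA10 it had 0.88, 1.49, 1.80, 1.41 and 1.66 in torpid animals, against 1.41, 1.32 and 1.45 in summer animals, and on MA07 -0.90, -0.63, -0.65, -0.58 and -0.58 in torpid animals, against -0.29, -0.48 and -0.56 in summer animals. The groups overlapped on MA10 and were separate on MA07 by a margin of 0.02. The differences were 0.05, with an interval of -0.72 to 0.83, and -0.22, with an interval of -0.59 to 0.14. The probe on MA11 gave 0.12.

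Of the origin licensing and helicase genes, 0 of 13 probes were called, with 6 positive and 7 negative differences and a median of -0.14. Mcm2, a subunit of the replicative helicase, had -1.21, -1.37, -0.71, -0.68 and -0.995 in torpid animals, against -0.42, -0.30 and -0.85 in summer animals. The groups overlapped, because torpid animals 3 and 4 were above summer animal 3, and the difference was -0.47 ± 0.22 (adjusted p = 0.453 by limma). The other subunits showed no common direction: Mcm6 had 0.25 and 0.29 on 2 membranes, Mcm4 ran from -0.23 to 0.80 over 3 clones, and Mcm3, Mcm5 and Mcm7 had -0.22, -0.33 and -0.14. Cdc6, which loads the helicase, had 0.12 ± 0.80 and -0.27 ± 0.28. The first of these was imprecise, with torpid animal 4 at -3.41. Cdc7, the kinase that activates the helicase, had 0.12 ± 0.38 in a dim probe (signal percentile 9.60) with values in 3 torpid animals.

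Pcna, the sliding clamp of the replication fork, overlapped between the groups in the brightest of its 3 probes. On MA08 it had 0.36, 0.20, 0.14, 0.36 and 0.32 in torpid animals, against 0.32, -0.29 and 0.24 in summer animals. The difference was 0.19 with an interval of -0.26 to 0.64, and its probes on MA07 and MA10 gave 0.18 and 0.05. All 3 clones were positive, and a difference of more than 1.55-fold upwards lies outside the interval of the MA08 probe.

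Rrm2, the small subunit of ribonucleotide reductase that is made in S phase, had the lowest difference of all members, but by 1 of its 3 clones. Probe 6016 of MA07 had 0.01, 0.79, 0.81, 0.31 and 0.52 in torpid animals, against 0.66, 1.84 and 3.67 in summer animals. Summer animal 3 stood 1.84 above the next highest animal, and summer animal 1 lay within the torpid range. The difference of -1.57 ± 0.53 (limma adjusted p = 0.295) became -0.76 (adjusted p = 0.504) without summer animal 3 and -2.27 (adjusted p = 0.0517) without summer animal 1. Probe 5535 had 0.14, 0.25, 0.66, 0.42 and 0.32 in torpid animals, against 0.48, 0.58 and 0.06 in summer animals, and probe 221 had -1.45, -1.18, -2.15, -1.48 and -1.63 in torpid animals, against -1.07, -0.95 and -1.72 in summer animals. In these probes summer animal 3 was the lowest of the summer animals, and the differences were -0.012 and -0.33. Rrm1, the large subunit, had -0.60, -1.05, -1.14, -0.97 and -1.20 in torpid animals, against -0.88, -0.70 and -0.57 in summer animals, a difference of -0.27 ± 0.19 with overlapping groups. Rrm2b, the p53-inducible small subunit used outside S phase, had -0.45 and -0.04.

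Aurkb, the kinase of the chromosomal passenger complex, had a profile over the animals like that of Rrm2 probe 6016. Its levels were 0.18, 0.16, 0.73, 0.68 and 0.30 in torpid animals, against 0.06, 1.10 and 2.65 in summer animals. Summer animal 3 stood 1.55 above the next highest animal, as it did by more than 1 in 182 of 9546 tested MA07 probes (1.91%), of which 2 were members. Over the 8 animals the 2 probes, which share membrane and RNA, had a Pearson correlation of 0.94, given as a description of a pair chosen after its values were seen. The Aurkb difference was -0.86 ± 0.46 (limma adjusted p = 0.514) and -0.17 without summer animal 3.

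**Figure D3:**
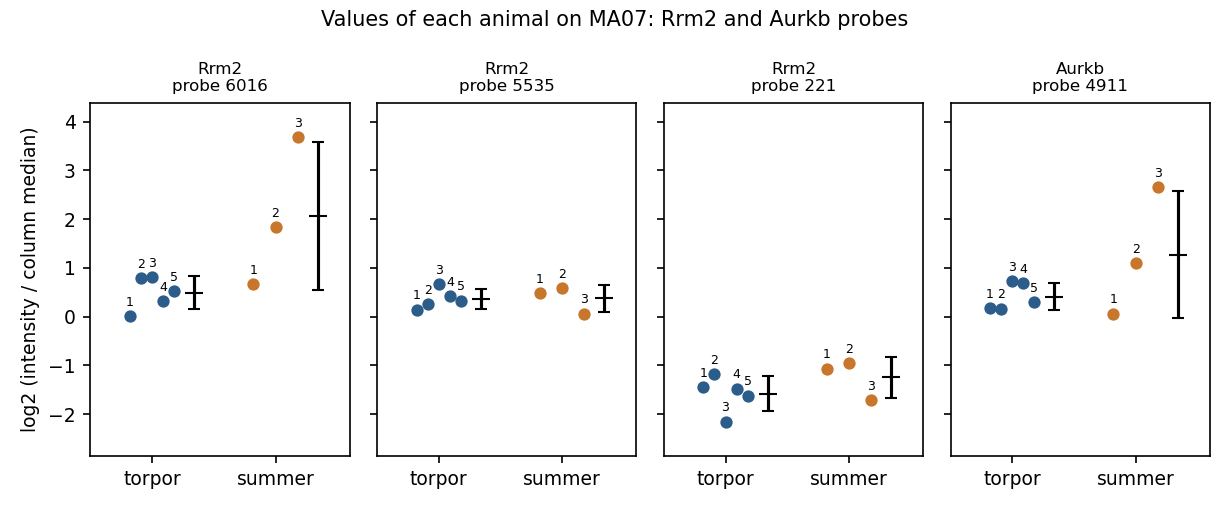
Each panel plots 1 MA07 probe, with each animal's log2 intensity over the column median (vertical axis), torpid animals left and summer animals right, and the mean with SD as a bar. Summer animal 3 is highest in Rrm2 probe 6016 (3.67) and in Aurkb (2.65), and is the lowest summer animal in the other Rrm2 probes.

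The other Aurora and Polo-like kinases had small differences, and 0 of the 12 probes of both families were called (4 positive, 8 negative, median -0.14). Aurka, which matures centrosomes, had 1.88, 1.20, 1.54, 1.32 and 1.47 in torpid animals in its brightest probe, against 1.09, 1.48 and 1.41 in summer animals. The difference of 0.15 was -0.04 with quantile normalization and -0.09 with cyclic loess. Its 3 clones gave 0.15 and -0.30 on MA11 and -0.04 on MA07. Plk1, the main mitotic Polo-like kinase, had -0.42, 0.38, -0.90, 0.07 and 0.22 in torpid animals, against 0.13, 0.11 and -0.05 in summer animals. The torpid values spread to both sides of the summer values, and the difference was -0.19 with an interval of -0.84 to 0.45. Plk5, a kinase-deficient member of the family best known from neurons, had 0.19, 0.36, -0.53, 0.15 and 0.33 on MA07 in torpid animals, against 0.29, 0.49 and 0.51 in summer animals, and its 3 clones gave -0.33, -0.08 and -0.30.

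The G1 cyclins and their kinases were measured with 27 probes of 7 genes, 11 positive and 16 negative, with a median of -0.025 and 0 called. Ccnd3 (cyclin D3) had the lowest p, by a MA10 probe with 2.13, 1.22, 2.005, 1.38 and 1.39 in torpid animals, against 0.98, 0.28 and 0.53 in summer animals. Here every torpid animal lay above every summer animal, and the difference was 1.03 ± 0.38 (adjusted p = 0.3001 by limma). Its other 3 clones gave -0.06, -0.02 and -0.03. Duplicates of summer animal 1 in the MA10 probe were 0.30 and 1.67, further apart than the 2 group means.

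Ccnd1 and Ccnd2, the other D-type cyclins, went both ways. On MA08 Ccnd1 had 1.70, 1.19, 0.76, 0.87 and 1.02 in torpid animals, against 0.96, 0.40 and 1.35 in summer animals, and the same clone on MA11 had -0.40, -0.48, -0.11, -0.69 and -0.08 in torpid animals, against -0.21, 0.43 and 0.27 in summer animals. The 2 spots of this clone thus gave 0.20 and -0.52, a gap of 0.72, and the groups overlapped in both. The 8 probes of Ccnd2 lay between -0.67 and 0.22 (median -0.27), and its clone spotted on 2 membranes gave -0.30 and -0.53. Ccne1 (cyclin E1) had -0.51, -1.01, -0.42, -1.36 and -0.58 in torpid animals, against -0.45, -0.99 and -0.18 in summer animals, with a difference of -0.24 and an interval of -0.84 to 0.36. Of the partner kinases, Cdk4 ran from -0.03 to 0.32 over 3 clones and Cdk6 from -0.19 to 0.02 over 4. Cdk2 gave 0.12 and 0.39, with wide intervals of -0.84 to 1.08 and -0.54 to 1.32.

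The cyclins of S phase and mitosis, Cdk1 and the Cdc25 phosphatases had 7 positive and 12 negative differences over 19 probes, a median of -0.13 and 0 called. Cdk1, the kinase that drives mitosis, had 0.38, 0.56, 0.59, 0.54 and 0.24 in torpid animals, against 0.54, 0.35 and 0.81 in summer animals. Its difference of -0.11 had an interval of -0.51 to 0.29. Ccna2 (cyclin A2) had 0.76, 0.21, 0.18, 0.70 and 0.75 on MA07 in torpid animals, against 0.51, 0.48 and -0.28 in summer animals. The groups overlapped in this probe, and the 3 Ccna2 clones gave 0.18, 0.29 and 0.34, the last without overlap of the groups. Ccnb2 (cyclin B2) was the reverse, with 0.94, 0.64, 0.76, 0.67 and 0.66 in torpid animals, against 0.997, 1.12 and 1.05 in summer animals, a difference of -0.32 ± 0.16 without overlap (adjusted p = 0.471 by limma).

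Cdc25a, the phosphatase that activates Cdk2, had the most probes of any member, 9 probes of 8 clones between -1.05 and 0.56. The lowest was a MA10 probe with -2.62, -2.02, -3.26, -2.17 and -2.82 in torpid animals, against -1.94, -1.31 and -1.35 in summer animals. On MA11 another clone had 0.80, 0.43, 0.89, -0.08 and 0.37 in torpid animals, against 1.08, 1.54 and 0.84 in summer animals. The groups were separate on MA10 and overlapped on MA11, with differences of -1.05 ± 0.40 and -0.67 ± 0.28, and the other 7 probes had 4 positive and 3 negative values. Cdc25b, which starts Cdk1 activation, had -0.18, -0.89 and -0.50, the last at -0.49, -0.07, -0.21, -0.45 and -0.64 in torpid animals, against 0.14, 0.25 and -0.01 in summer animals. All 3 Cdc25b clones were negative, and the lowest limma adjusted p among them was 0.425. The probe at -0.89 (SE 0.45) was dim, at signal percentile 1.82, and was empty in torpid animal 2. A probe annotated with the human symbol CDC25A, which the members leave out, gave -0.46.

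The spindle checkpoint had 7 positive and 5 negative differences over 12 tested probes, with 0 called. Bub1, a checkpoint kinase of the kinetochore, had the lowest p, by a MA11 probe with 6.60, 7.18, 6.52, 6.72 and 6.64 in torpid animals, against 7.27, 7.54 and 7.51 in summer animals. Every torpid animal was below every summer animal, with a difference of -0.71 ± 0.23 (limma adjusted p = 0.258). That probe is one of the 192 brightest 2% of MA11, of which 174 (90.6%) were lower in torpor, with a median of -0.57 and 0 called. With quantile normalization or cyclic loess the Bub1 difference was -0.16 or -0.23 and the median of the bright probes -0.08 or -0.11. Bub1 probes of ordinary signal gave -0.05 on MA07 and 0.32 on MA10. The same bright set held Cdc45, a subunit of the active helicase, with 5.51, 5.71, 6.51, 6.45 and 5.97 in torpid animals, against 6.38, 6.79 and 6.59 in summer animals, and a Mcm3ap probe with 7.05, 7.23, 4.83, 6.37 and 6.81 in torpid animals, against 7.15, 7.96 and 7.26 in summer animals. Their differences of -0.56 and -1.0001 were -0.07 and -0.50 with quantile normalization, and the part of the bright set in these results was not tested further.

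**Figure D4:**
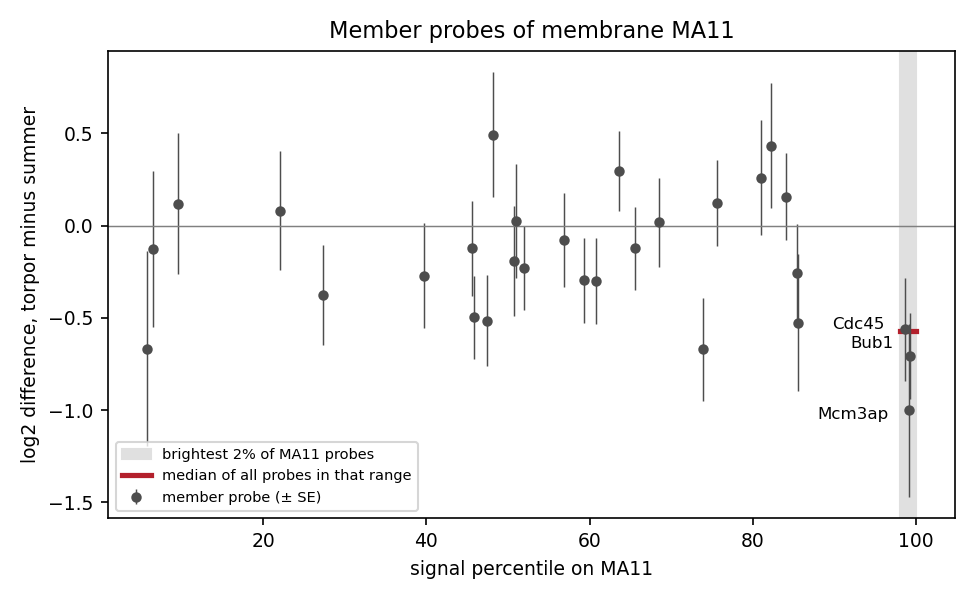
Points are the member probes of MA11 by signal percentile (horizontal axis) and log2 difference, winter torpor minus summer active (vertical axis), with SE as bars. Bub1 (-0.71), Mcm3ap (-1.0001) and Cdc45 (-0.56) lie in the brightest 2% of the membrane, whose probes had a median of -0.57 (red line).

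Other checkpoint genes lay on both sides of 0. Bub1b, which encodes the BubR1 component of the checkpoint complex, had 1.52, 0.998, 1.78, 1.56 and 1.47 in torpid animals, against 0.83, 1.71 and 0.69 in summer animals. The groups overlapped through summer animal 2, with differences of 0.39 and, for its other clone, 0.09. Bub3, the partner that brings Bub1 and BubR1 to kinetochores, had 5 clones between -0.31 and 0.29. Mad2l2, a relative of Mad2l1 that acts in translesion synthesis, had 1 probe at -0.78 ± 0.71. Mad2l1, the checkpoint effector that binds Cdc20, had 0.04 on MA07, and its dim MA10 probe had values in 2 summer animals and in no torpid animal, too few to test.

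Of the 28 probes for 20 centromere and kinetochore genes, 19 were negative and 9 positive, with a median of -0.10 and 0 called. Cenpv, which takes part in centromere organisation and cytokinesis, stood at the low end. Its clone was spotted in 2 places on MA08: probe 4816 had -0.12, -0.59, 0.0069, -0.0076 and -0.025 in torpid animals, against 1.33, 0.26 and 1.22 in summer animals, and probe 5299 had 0.48, 0.18, -0.25, 0.23 and -0.03 in torpid animals, against 1.02, 0.31 and 1.13 in summer animals. Summer animal 2 was the lowest of the summer animals in both spots and lay within the torpid range in the second. The differences were -1.08 ± 0.27 (limma adjusted p = 0.154) and -0.70 ± 0.25 (adjusted p = 0.309). Probe 4816 passed without summer animal 2 (-1.42, adjusted p = 0.0443) and with an intensity trend together with a robust prior (adjusted p = 0.0454), and its adjusted p over the alternatives ran from 0.0443 to 0.333.

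Without Cenpv, the 26 centromere probes of 19 genes lay between -0.90 and 0.49 (median -0.07), none with an unadjusted p under 0.05. Cenpa, the histone H3 variant that marks centromeres, had 0.00069 and -0.14. Cenpe, the kinetochore motor, had -0.34 and -0.90, while Cenph, of the inner kinetochore, had 0.21 and 0.49, and Cenpm -0.0038 and 0.02. The 4 genes that entered by a shared name start but are named for binding a member (Mcm3ap, an mRNA export factor, and Ccndbp1, Ccnb1ip1 and Mad2l1bp) had 3 positive and 6 negative tested probes and 0 called. A Ccndbp1 probe of MA11 had values in only 1 summer animal and was not tested.

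Probes of the same gene often differed in sign, also where both differences were close to 0, as for Cenpm (-0.0038 and 0.02). Of the 42 genes tested with 2 or more clones, 27 had differences of both signs, 7 had only positive and 8 only negative ones. The span between the probes of such a gene had a median of 0.45 and was largest for Anapc7, at 2.92. A single member probe had a median standard error of 0.27. For the 6 repeated clones with both spots tested, the differences were between 0.15 and 0.72 apart. The genes positive in all clones were Anapc7, Bub1b, Ccna2, Cdk2, Cenph, Mcm6 and Pcna, and those negative in all were Anapc11, Anapc15, Cdc25b, Cenpe, Cenpt, Plk5, Rrm2 and Rrm2b. Only Cdc25a and Cenpv had more than 1 probe with an unadjusted p under 0.05, and the Cenpv probes are of 1 clone.

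**Figure D5:**
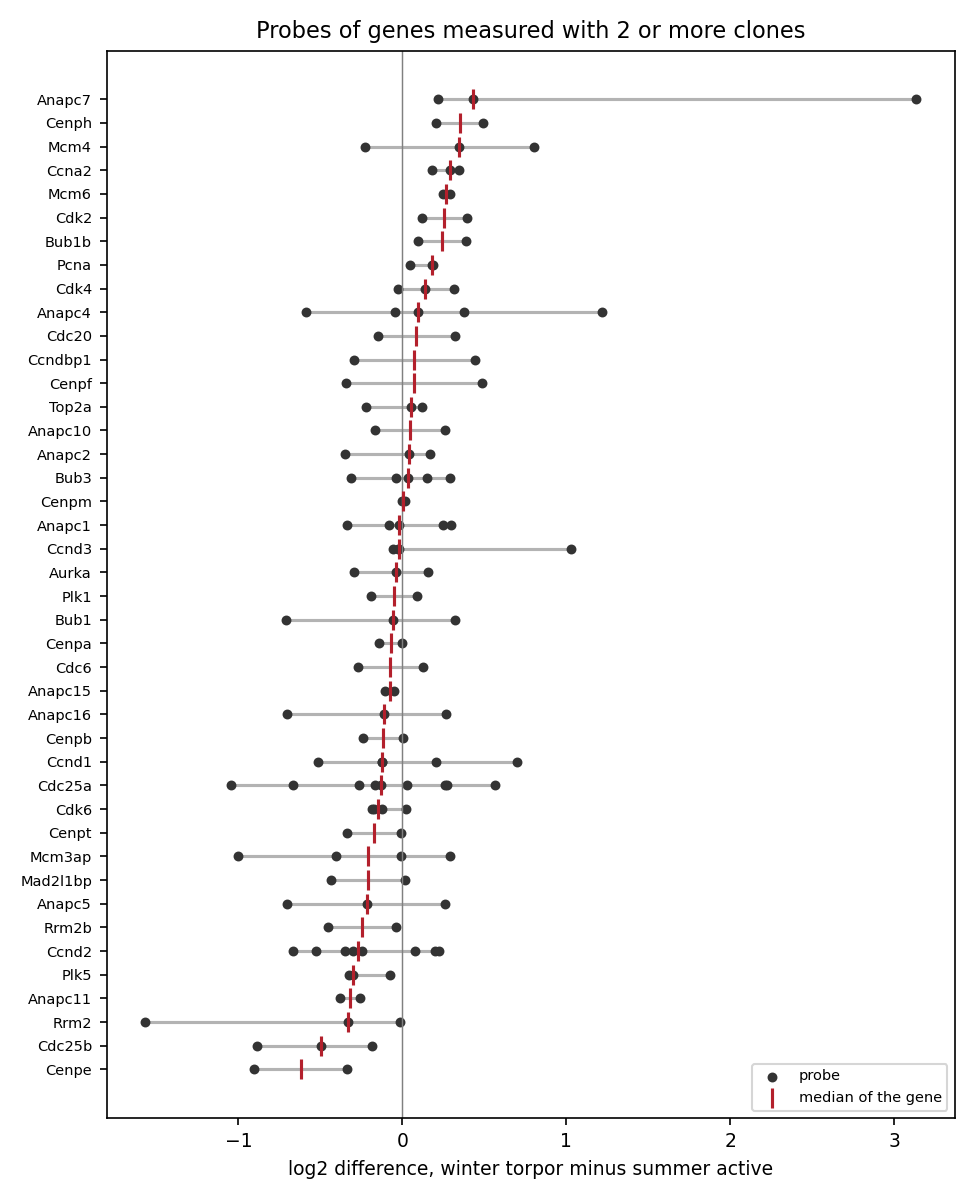
Each row is 1 of the 42 genes tested with 2 or more clones, each point 1 probe by its log2 difference (winter torpor minus summer active, horizontal axis), and red ticks mark the median of the gene. Spans cross 0 for 27 genes, and the widest is that of Anapc7, from 0.22 to 3.13.

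A further list covered other genes of the division cycle. Of 263 probes for 117 further genes (origin recognition, replication polymerases, E2F and retinoblastoma families, inhibitors, cohesin, condensin, kinesins), 259 were tested and 0 were called, with 136 positive and 123 negative values, a median of 0.04 and 31 with an unadjusted p under 0.05 (18 higher, 13 lower). That is 11.97% of them, near the 11.6% of all tested probes. The lowest p belonged to Smc3 (1.58 ± 0.30, limma adjusted p = 0.0621) and Rad21 (1.02 ± 0.22, adjusted p = 0.0868), both of the cohesin ring that holds sister chromatids, and to Stmn1, a microtubule destabiliser (-1.15 ± 0.24, adjusted p = 0.0961), and Rfc1, the large subunit of the clamp loader (1.83 ± 0.40, adjusted p = 0.110). The 4 Smc3 probes ran from -0.04 to 1.58, and the highest of them was dim, at signal percentile 3.66, and its difference was 0.31 once low intensities were raised to the 10th percentile. All 4 Rad21 probes were positive (0.44 to 1.08) and all 3 Stmn1 probes negative (-1.32 to -0.32), while Rfc1 ran from -0.78 to 1.83.

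Markers of the tissue and of its cell types that can divide were read on the same membranes. Of 10 brown adipocyte genes, 6 were tested (Cidea, Dio2, Prdm16, Ppargc1a, Elovl3 and Pparg), with 7 of 9 probes negative, a median of -0.37 and 0 called, and Ucp1 was not analysed here. Preadipocyte and fibroblast genes had 18 of 29 probes negative (median -0.14), macrophage and lymphocyte genes 8 of 14 (median -0.19), and endothelial genes 2 of 6 (median 0.14), with 0 called by limma in each list. An unadjusted p under 0.05 was found for 4 of 29 preadipocyte and fibroblast probes (3 higher, 1 lower), 1 of 6 endothelial probes (lower) and 0 brown adipocyte probes. Of the macrophage and lymphocyte probes, 6 of 14 (42.9%, where all tested probes had 11.6%) lay under that value, 2 higher and 4 lower. The 2 highest values of this list were both of 1 gene, Lcp1, a leukocyte actin-bundling protein. They were 1.4534 in its brightest probe and 1.4537 in another. The 5 Lcp1 probes themselves ran from -0.75 to 1.45. Cd79a and Cd3e, parts of the B and T cell receptors, had -1.01 and -0.89, and Cd74 had -0.66. Cd79b, the partner of Cd79a, had 0.24 in its brightest probe and -0.33 in the other. Lyz2 and Cd68 had 0.62 and 0.20, and Ptprc had -0.09 and 0.02. The part of these cell types in the values of the cell division genes was not tested.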

How the data were processed

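The deposited values are linear intensities of 33P signal per cDNA probe, and every column has a median of 1 with empty cells ranked lowest. How the authors imaged, background-corrected and scaled the intensities is not given in the sources. There were 44 columns, 11 on each of 4 membranes of 9600 probes, and 3.45% of cells were empty. Scans give no read depth, so the number of animals limits the precision, and intervals cover 95%. The log2 of each intensity was taken, the duplicates of the 3 split RNAs were averaged to 1 animal, and limma 3.58.1 in R 4.3.3 compared 5 torpid with 3 summer animals per membrane (two-sided, animals as replicates). A probe was tested where each group had values from 2 or more animals, and p-values were adjusted by Benjamini-Hochberg over all 37848 tested probes at 0.05. The fit was also run on simulated data with independent noise and large shifts, which cannot show how it handles small differences. Probe levels are not compared between probes, because length and match to squirrel RNA differ.

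Gene symbols came from the array annotation, which can be old. The members and lists were chosen with earlier results of these data known. Probes were described in full for a list of 14 central genes (13 had a member probe, Ccnb1 had none), by the brightest probe of each, and for the 2 lowest p of each role group, the 4 lowest p of the further cell cycle genes and any probe past the threshold; the other probes named were chosen after their values were seen. Mcm3ap, Ccnb1ip1, Ccndbp1 and Mad2l1bp were set apart from the role groups after values were seen. The alternatives were quantile and cyclic loess normalization, a floor at the 10th percentile, leaving out the dimmest 25% of probes, either duplicate alone, an intensity trend with a robust prior, array weights, a block for the animal number, adjustment within membranes, a threshold of 0.10, 1 value per gene and leaving out each membrane or each animal.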

Additional observations from a re-analysis of the deposited data

Results flagged for a closer look

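The torpid animals were compared in 31 probes, the 27 member probes chosen by the rule for named genes and those of Smc3, Rad21, Stmn1 and Rfc1. In 4 of them 1 torpid animal lay farther from the other torpid animals than Dixon's 95% limit, where chance gives about 1 in 20. Torpid animal 4 had 1.39 in the called Anapc7 probe of MA07, below the others at 2.21 to 2.52. Torpid animal 2 had -0.59 in the Cenpv probe 4816 of MA08, below the others at -0.12 to 0.0069. Torpid animal 3 had -0.53 in the Plk5 probe of MA07, where the others had 0.15 to 0.36. Torpid animal 1 had -0.90 in the Top2a probe of MA07, where the others had -0.65 to -0.58. Each of the 4 values was the lowest of the torpid animals and came from a different animal.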

How the results depend on the processing

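The number of member probes called was 1 in the reported analysis, 0 with the second duplicates alone and 2 (Anapc7 and Cenpv) with the intensity trend and robust prior. Leaving out 1 animal gave 0 (without torpid animal 2) to 2 (without summer animal 2, again Anapc7 and Cenpv), while the count over all probes, 117 in the reported analysis, ranged over the alternatives from 17 without torpid animal 2 to 347 without summer animal 1, and was 38 with the second duplicates, 228 with the trend and robust prior, 76 with the floor, 63 with cyclic loess, 238 without the dimmest probes, 176 with the first duplicates and 304 at a threshold of 0.10. Without torpid animals 1, 3, 4 and 5 it was 45, 50, 60 and 78. The Anapc7 probe of MA07 passed in 15 of 17 alternatives, with differences of 2.68 to 3.60. The median of the members was negative in every alternative run, and between -0.11 and -0.05 when 1 animal was left out. The sign turned for Aurka on MA11 (-0.0436 with quantile normalization, -0.0915 with cyclic loess) and Top2a on MA10 (-0.0505 with the first duplicates, -0.0037 with the replicate block). When 1 animal was left out, differences crossed 0 for Ccnd1 on MA08 (-0.0487 to 0.43), Cdk1 (-0.22 to 0.0142), Cdc20 (-0.30 to 0.0221), Pcna (-0.0042 to 0.30) and Top2a on MA10 (-0.0340 to 0.20). The cause of these changes was not tested, and only some of the fits held fewer animals or columns. Of the further cell cycle genes, Smc3 and Rad21 and Stmn1 passed in 2 alternatives each and Rfc1 in 1. The same animal numbers occur in both groups, and the labels state no pairing. Deviations of same-numbered animals correlated at 0.014, 0.010 and 0.0086, and those of differently numbered animals at -0.015 to 0.0055. Such values cannot settle whether animals were paired. With the replicate block (animals 1 to 3 of each group) 1 member was called, Anapc7 at 3.35 with a limma adjusted p of 0.0478, the member median was -0.06, and 31 probes were called in all. The planned search of promoter motifs was not run, because no promoter sequences were used here. Dim probes limit the reading of low signals, and the number of animals that of small differences: the median member had a standard error of 0.27.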
